A study of Mus musculus with 4 samples.

Results

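The comparison described here set the library made 3 days after transient middle cerebral artery occlusion (tMCAO) against the sham library, with 1 library in each group. Its members were all cells of these 2 libraries with 200 to 6000 detected genes and at most 10% of their unique molecular identifiers (UMIs, counts of single RNA molecules) from mt- genes. These limits kept 21491 of the 54754 cells kept in the whole series, 10193 from sham and 11298 from day 3. Of them, 17476 fell into 1 of 5 major classes gated on marker genes, 8340 in sham and 9136 on day 3. The comparison asked which genes differed in endothelial cells, mural cells, oligodendrocytes, microglia and astrocytes at once, and which in 1 class only.

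The study profiled single cells of the ipsilateral hemisphere with 10x Genomics 3′ RNA sequencing. In tMCAO, a monofilament blocks the middle cerebral artery for a limited time and blood flow is then restored. All mice were males, 8 weeks old in the labels and 8 to 10 weeks in the methods, which give the strain as C57/BL6. The tissue was digested with papain and passed through a Percoll step against myelin debris. The design text places the sham library at day 7 after surgery, whereas the study elsewhere shows it as day 0, and the number of mice behind each library is not given in the sources used here. With 1 library a group, every interval below covers counting error at 95% only, no p-value can be given, and a difference between the libraries cannot be told apart from a difference between mice, dissections or library preparations.

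Within days of a stroke, brain vessels, glia and incoming leukocytes all alter their transcription. Endothelial cells can display adhesion molecules and chemokine-binding receptors that slow down leukocytes, microglia can take up debris and divide, and astrocytes and oligodendrocytes can each turn on reactive programmes. Some programmes, such as heat shock, interferon response and ribosome production, can run in any cell, so a gene may move in every class or in 1.

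The sham library held 90607320 UMIs over 11744 cells before the limits and the day 3 library 69392755 UMIs over 11983 cells. Kept cells had a median of 5493 UMIs in sham and 3809 on day 3, and a median mitochondrial share of 3.56% and 2.57%. The libraries shared 33 barcodes, of which 21 were kept in both, and no shared barcode held identical counts. Scrublet marked 298 sham cells (2.92%) and 261 day 3 cells (2.31%) as doublets, mostly among cells that passed the gates of several classes, which had been set aside (870 in sham, 1246 on day 3).

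Among the 5 classes, microglia had the largest ratio of shares. They made up 1.27% of kept cells in sham (129 cells, interval 1.06% to 1.5%) and 3.49% on day 3 (394 cells, 3.16% to 3.84%), a share 2.76 times as large. Oligodendrocytes went the other way, from 13.7% (1394 cells) to 8.71% (984 cells). Mural cells, the pericytes and smooth muscle cells that wrap the vessels, made up 11.4% (1160 cells) and 13.9% (1575 cells). Endothelial cells were near equal at 54.6% (5568 cells) and 53.8% (6078 cells), as were astrocyte-gated cells at 0.873% (89 cells) and 0.929% (105 cells). These are shares of captured cells after digestion and Percoll, and the size limits moved them. With cells under 5% mitochondrial UMIs the mural share was 2.27 times that of sham, and with an upper limit of 3000 genes the oligodendrocyte ratio was 0.86 in place of 0.64. Cells with at least 2 border macrophage or 2 monocyte markers could not enter the microglial class, and the part of this bar in the microglial shares and ratios was not tested. Depth also differed by class, since the median fell below sham in endothelial cells (3655.5 against 2453 UMIs), mural cells (6197.5 against 3688) and oligodendrocytes (9260.5 against 7075) but lay above it in microglia (1832 against 2637.5) and astrocyte-gated cells (2435 against 3873).

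The marker genes were checked against each label. Cdh5, the vascular cadherin, was found in 78.7% of sham and 72.3% of day 3 endothelial cells, C1qb in 100% and 99.0% of microglia, Mog in 99.8% and 100% of oligodendrocytes, and Notch3 in 88.6% and 86.9% of mural cells. Apart from Cdh5, the lowest of the endothelial list, these were the most often detected markers, and the least were Opalin in oligodendrocytes (93.0% and 93.5%), Gpr34 (62.0% in sham) and Siglech (61.2% on day 3) in microglia, Abcc9 in mural cells (21.4% and 37.5%) and, in the astrocyte class, Aqp4 (57.3% in sham) and Fgfr3 (52.4% on day 3). Gja1 was in 84.3% and 93.3% of the astrocyte class, but this class was mixed, and its day 3 sum was led by Npy, a neuropeptide gene. In it, 25 of the 105 day 3 cells but 2 of the 89 sham cells carried the genes Npy, Frzb and Prss56, and these cells held 20.6% of that class's UMIs on day 3 against 3.69% in sham. A further 8 and 10 cells carried Prg4, Nov and Slc47a1. The astrocyte gate was also the least sharp, with 14 sham and 30 day 3 cells less than 2-fold above its cut and 25 and 27 less than 2-fold below it. A narrower gate without those cells, added after the data had been seen, held 66 sham and 67 day 3 cells, and its values stand beside the astrocyte results or in the plots that show it. The mural class changed in make-up too, with pericyte-marked cells at 33.3% in sham and 46.9% on day 3. More generally, a change in the mix of vessel segments or cell states inside a class and a change of level per cell cannot be told apart in these sums.

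Levels are UMIs of a gene in 1000000 UMIs of its class (CPM). A gene was tested in a class where the mean of its 2 levels was at least 50 CPM, and was said to have risen or fallen where log2((day 3 + 10)/(sham + 10)) was at least 1 or at most -1. By this rule of size, 70 genes rose in endothelial cells (2.02% of 3459 tested) and 36 fell (1.04%). In mural cells 19 rose (0.611% of 3108) and 5 fell (0.161%), and in oligodendrocytes 9 rose (0.305% of 2954) and 4 fell (0.135%). In microglia 126 rose (4.68% of 2692) and 89 fell (3.31%), and in astrocyte-gated cells 150 rose (4.19% of 3578) and 173 fell (4.84%). Of these genes, 46 risen and 26 fallen in endothelial cells, 12 and 4 in mural cells, 3 and 3 in oligodendrocytes, 84 and 63 in microglia and 82 and 77 in astrocyte-gated cells were at 50 CPM or more in both libraries, and the others passed the minimum through the library where they were higher. The last 2 classes held the fewest cells and thus have the widest intervals. The median log2 ratio over all tested genes lay between -0.03 and 0.08 in the 5 classes. The sums were not corrected for free RNA, that is RNA released by other cells, and its part in these counts was not tested.

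Changes shared by every class were rare. Of 1373 genes tested in all 5 classes, 1 rose in all of them (0.0728%) and 2 fell in all of them (0.146%). By contrast, 102 rose in exactly 1 class, 5 in 2, 1 in 3 and 2 in 4, whereas 37 fell in exactly 1, 5 in 2 and 1 in 4.

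Inducible heat shock genes rose in 4 of the 5 whole classes. Hspa1a and Hspa1b are neighbouring genes for near-identical HSP70 chaperones, and the counting may have shared reads between them. Hspa1b went from 87.8 to 1069 CPM in endothelial cells (12.2-fold, 11.7 to 12.7), 58.7 to 312 in mural cells (5.31-fold, 4.77 to 5.93) and 15.3 to 111 in oligodendrocytes (7.22-fold, 6.21 to 8.43). In microglia it stood at 55.8 and 115 CPM, a log2 ratio of 0.92 that missed the line. Astrocyte-gated cells had no Hspa1b UMI in sham and 81 on day 3 (145 CPM), at least 11.3-fold higher by the lower limit of the ratio interval. Against the floor of 3 counts in sham, without the error of the day 3 count, it was 14.2-fold higher. Only 7 of the 81 UMIs came from the narrower gate. Hspa1a rose in the same classes as Hspa1b, from 311 to 1552 CPM in endothelial cells, 278 to 768 in mural cells, 23.6 to 127 in oligodendrocytes and 47.8 to 138 in astrocyte-gated cells (0 and 6 UMIs in the narrower gate, too low to be tested), and stood at 175 and 249 in microglia. Hspa1b UMIs were in 12.3% of sham and 34.6% of day 3 endothelial cells, and in 3.99% and 25.4% at equal depth, that is with each cell thinned to 1000 UMIs. Cells under 1000 UMIs were left out of every share at equal depth, 602 sham and 683 day 3 endothelial cells, 68 and 96 mural cells, 19 and 3 oligodendrocytes, 35 and 115 microglia and 17 and 1 astrocyte-gated cells. The constitutive chaperone Hspa8 had log2 ratios between 0.56 and 0.69 in the 5 classes and passed in none. Of the 11 of 12 heat shock genes tested in each class, 2 rose in endothelial cells, mural cells and oligodendrocytes, 0 in microglia and 4 in astrocyte-gated cells (1 of 8, Hspb1, in the narrower gate), at medians of 0.53, 0.34, 0.45, 0.28 and 0.77. Over the members at 50 CPM or more in both libraries, 2 of 11 rose in endothelial cells, 2 of 10 in mural cells, 0 of 8 in oligodendrocytes, 0 of 11 in microglia and 1 of 8 in astrocyte-gated cells.

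The sequences before the starts of these 2 genes are shown because both rose together. They are the 250 bases upstream of the RefSeq start (GRCm38.p6), 5′ to 3′ on the gene's strand, at chr17:34972157-34972406 for Hspa1a and chr17:34959239-34959488 for Hspa1b, both minus, with capitals on each match to the letters GAANNTTC or TTCNNGAA, the inverted units that the heat shock factor HSF1 is known to bind.
Hspa1a: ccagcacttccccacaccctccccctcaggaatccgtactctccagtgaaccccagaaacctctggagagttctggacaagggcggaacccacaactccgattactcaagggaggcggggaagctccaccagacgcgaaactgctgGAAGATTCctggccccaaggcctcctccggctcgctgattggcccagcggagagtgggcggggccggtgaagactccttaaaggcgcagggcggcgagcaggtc
Hspa1b: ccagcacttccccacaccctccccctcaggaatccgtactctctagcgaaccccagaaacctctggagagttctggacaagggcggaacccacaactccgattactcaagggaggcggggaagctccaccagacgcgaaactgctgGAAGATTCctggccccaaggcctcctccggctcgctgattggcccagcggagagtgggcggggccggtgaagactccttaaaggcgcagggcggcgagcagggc
The 2 stretches were the same at 247 of 250 bases and each held 1 match, on either strand searched. In windows of 250 bases before to 50 after a start, 7 of 9 heat shock list genes held the letters in at least 1 window. The same was true of 17% of all 27025 genes (15.1% of all 32851 windows). The longer form GAANNTTCNNGAA or TTCNNGAANNTTC was in 3 of the 9 (Hspd1, Hspe1 and Hsph1) and in 0.662% of all genes (0.603% of all windows).

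Other genes leaned upward in all classes without passing in each. Grcc10 had log2 ratios of 0.92, 0.93, 0.97, 1.23 and 1.27 in endothelial, mural, oligodendrocyte, microglia and astrocyte-gated sums, so it passed in 2 classes and sat just under the line in the other 3. Slc39a1, a zinc importer, rose in endothelial cells (62.4 to 214 CPM) and astrocyte-gated cells (54.7 to 179, and 33.0 to 181 in the narrower gate) and had log2 ratios of 0.61 to 0.79 in the others. Kdelr2, the receptor that returns resident proteins to the endoplasmic reticulum, had ratios from 0.70 to 1.34, Cd9 from 0.52 to 1.23, Erh from 0.48 to 1.43, Rpl27 from 0.62 to 1.01, Rpl36al from 0.54 to 0.88 and Rpl17 from 0.48 to 0.95.

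**Figure D1:**
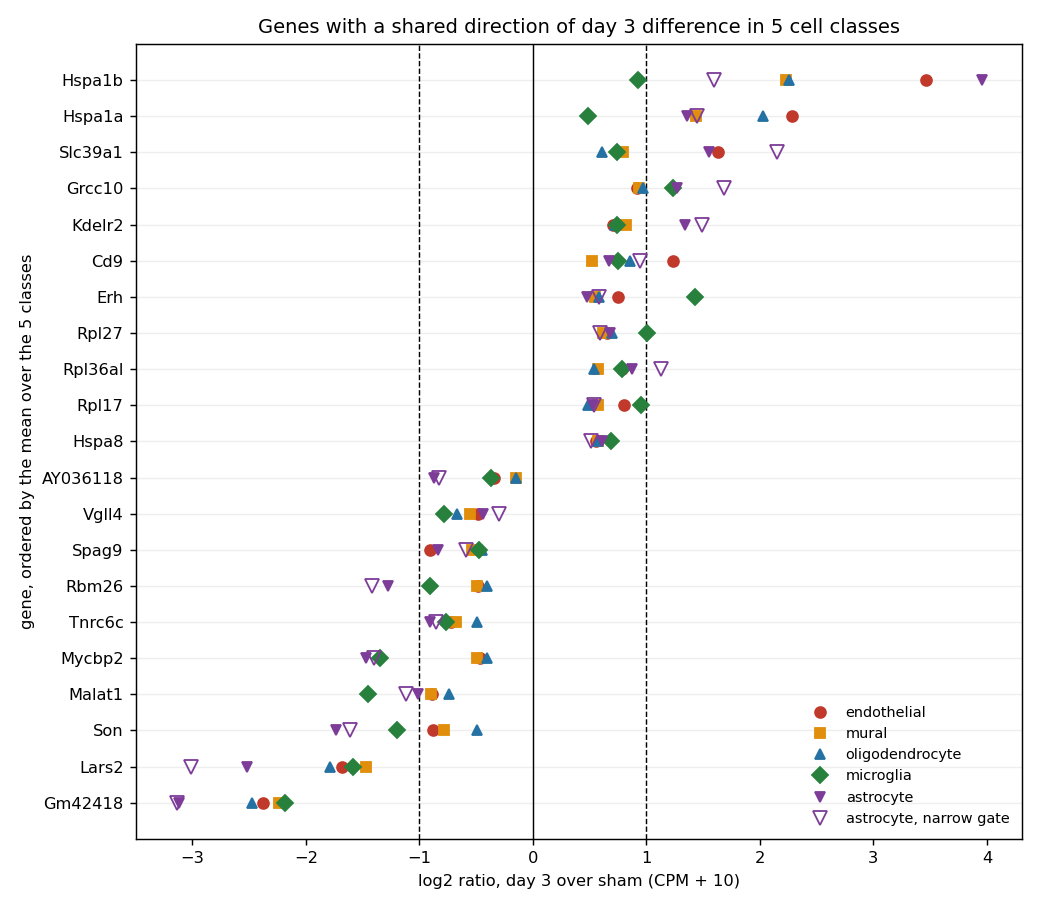
Log2 ratio of day 3 over sham (x axis, on CPM + 10) for genes whose direction was shared by all 5 classes (y axis), with 1 marker per class, an open triangle for the narrower astrocyte gate and dashed lines at 2-fold. Gm42418 and Lars2 lie past the lower line in every class, and no other gene shown lies past a line in all 5.

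The largest decrease shared by all classes was in Gm42418 (ENSMUSG00000098178, chr17:39846958-39848788, plus strand), an annotated long noncoding RNA that lies over ribosomal RNA sequence and is often read as a sign of it. It fell from 10538 to 2020 CPM in endothelial cells, 7764 to 1635 in mural cells, 6957 to 1247 in oligodendrocytes, 8249 to 1806 in microglia and 15301 to 1749 in astrocyte-gated cells (17023 to 1925 in the narrower gate), that is to between 0.114 and 0.219 of the sham level in the whole classes. AY036118, on the opposite strand of the same locus, had log2 ratios of only -0.88 to -0.15. Lars2, the mitochondrial leucyl-tRNA synthetase (chr9:123366927-123462666, plus strand), fell from 484 to 144 CPM in endothelial cells, 313 to 107 in mural cells, 237 to 61.6 in oligodendrocytes, 296 to 91.9 in microglia and 697 to 113 in astrocyte-gated cells (765 to 86.3). Both genes were lower than in the same sham library on day 1 (log2 ratio -3.39 to -2.54 for Gm42418 and -2.65 to -1.80 for Lars2) and on day 7 (-1.47 to -0.95 and -1.46 to -0.44), so the sham library had the highest level of both in each class. The 12 or 13 tested genes of the mitochondrial genome had medians of -0.61, -0.59, -0.35, -0.68 and -0.47 in the 5 classes (-0.64 in the narrower astrocyte gate), and whether RNA quality or the share of nuclear RNA had a part in these differences was not tested.

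Other genes had log2 ratios below 0 in all classes without passing in each. Malat1, a noncoding RNA retained in the nucleus, went from 27007 to 14610 CPM in endothelial cells, 50251 to 26995 in mural cells, 51266 to 30727 in oligodendrocytes, 30823 to 11240 in microglia and 102650 to 50939 in astrocyte-gated cells, and passed 2-fold in microglia and astrocyte-gated cells (log2 ratio -1.12 in the narrower gate). Son, which codes for a nuclear speckle protein, had log2 ratios from -1.73 to -0.49. Mycbp2 (-1.47 to -0.40), Rbm26 (-1.28 to -0.41), Tnrc6c (-0.90 to -0.49), Spag9 (-0.91 to -0.45) and Vgll4 (-0.78 to -0.44) had the same sign in all classes. The splicing factor list had medians between -0.12 and 0.09 with no member past 2-fold.

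Changes confined to 1 class were counted strictly: past 2-fold in 1 class, under 1.5-fold in the other 4, and with a ratio interval that overlapped none of theirs. By this rule, 36 of the 1373 genes rose in 1 class only (2.62%) and 5 fell in 1 class only (0.364%). Microglia held 27 of the 36 and 2 of the 5, astrocyte-gated cells 6 and 3, oligodendrocytes 2 and 0, endothelial cells 1 and 0, and mural cells 0 and 0. With the narrower astrocyte gate the upward count was 22, and with cells thinned to 1000 UMIs it was 8. A gene too low in any of the 5 classes could not enter this count, and genes tested in 1 class alone are given below by class. Some of those, such as Ackr1 and Selp in endothelial cells and Cst7 and Ube2c in microglia, passed the minimum only through day 3. Others, such as Adrb1 in microglia, passed it only through sham.

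In endothelial cells, some genes of leukocyte recruitment and of the acute phase rose steeply. Lcn2, which codes for the iron-carrier-binding protein lipocalin 2 (chr2:32384633-32388252), went from 61.0 CPM in sham to 3210 on day 3, 52.6-fold (50.1 to 55.2). Ackr1, a chemokine-binding receptor of venules (chr1:173331886-173333750, overlapping Cadm3), went from 17.7 to 1104 CPM (62.5-fold, 57.1 to 68.5). Scgb3a1, a secreted protein gene, went from 27.2 to 812 CPM and Lrg1, an acute phase glycoprotein that acts on vessels, from 41.6 to 994. Ackr1, Scgb3a1 and Lrg1 were under 50 CPM in sham and passed the minimum only through day 3, whereas Lcn2 was above it in both libraries. All 4 were lower on the other days, with Lcn2 at 180 CPM on day 1 and 265 on day 7, Ackr1 at 98 and 50.4, Scgb3a1 at 113 and 32.3, and Lrg1 at 240 and 59.8.

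Adhesion and activation genes rose in part. Of the 12 genes of this list, 11 were tested in endothelial cells, 8 rose and 0 fell, with a median of 1.72 against -0.03 for all tested genes, but 5 of the 11 passed the minimum only through day 3. Of the 6 members at 50 CPM or more in both libraries 3 rose, with a median of 0.98. P-selectin (Selp), which lets leukocytes roll, went from 2.35 to 123 CPM and Cd14, a co-receptor for bacterial lipopolysaccharide, from 8.44 to 263. Vcam1 went from 314 to 784 CPM, Icam1 from 106 to 245, von Willebrand factor (Vwf) from 322 to 1138 and the interleukin 1 receptor Il1r1 from 40.7 to 157. The oncostatin M receptor Osmr rose from 60.6 to 218 CPM, the ferritin heavy chain Fth1 from 3475 to 14745, the hypoxia factor Hif1a from 100 to 262, Mustn1 from 13.2 to 207 and the sodium pump subunit Atp1b3 from 127 to 344. Mustn1 passed the minimum only through day 3. Atp1b3 was the endothelial gene of the strict 1-class count, which it left under the narrower astrocyte gate, the stricter gate, a minimum of 200 CPM, cells of up to 3000 genes, 5% mitochondrial UMIs and thinning.

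The endothelial rise was carried by part of the cells. Lcn2 UMIs were found in 4.62% of sham and 27.8% of day 3 endothelial cells, and in 1.69% and 22.9% at equal depth. The other 4 classes reached 1.63% to 2.88% at equal depth on day 3, which is the background to read it against. Neutrophils also carry Lcn2 (9758 CPM on day 3), and the 7 neutrophil markers summed to 5.09 CPM in sham and 45.6 CPM on day 3 in endothelial cells, compared with 381061 CPM in neutrophils. Mural cells and oligodendrocytes, in which those markers summed to 38.2 and 28.7 CPM on day 3, had 19.1 and 23.5 CPM of Lcn2. Ackr1 UMIs were in 2.26% of sham and 15.9% of day 3 endothelial cells, and in 0.967% and 14.0% at equal depth.

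**Figure D2:**
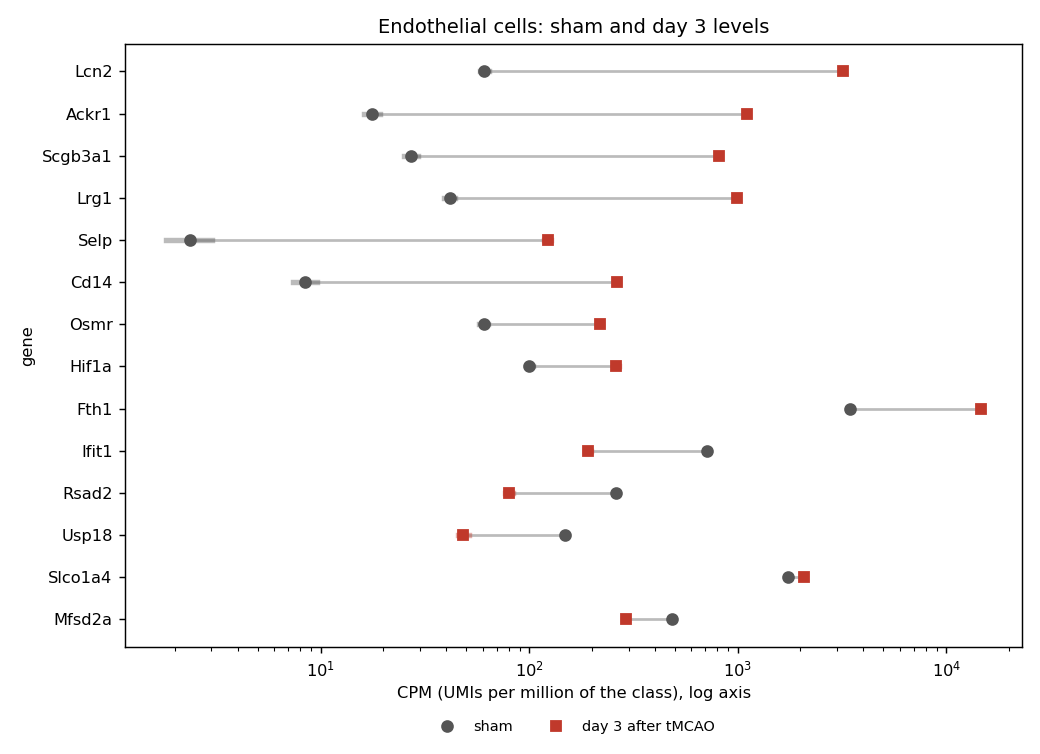
Level in endothelial cells (x axis, CPM on a log scale) of named genes (y axis) in sham (circles) and on day 3 (squares), with exact 95% Poisson intervals as bars. Lcn2, Ackr1, Scgb3a1, Lrg1, Selp and Cd14 lie far to the right on day 3, whereas Ifit1, Rsad2 and Usp18 lie to the left.

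Part of the interferon-stimulated list moved in the opposite direction in the same cells. All 17 members were tested in endothelial cells, 8 fell and 0 rose, with a median of -0.96 and log2 ratios from -1.98 to 0.66. Of the 15 at 50 CPM or more in both libraries, 6 fell. Isg15, a ubiquitin-like protein induced by interferon, went from 2123 to 537 CPM, Ifit3 from 827 to 202, Ifit1 from 709 to 192, Irf7 from 986 to 305, the antiviral enzyme gene Rsad2 from 261 to 80.4 and Usp18, which removes Isg15 from proteins, from 149 to 48.4. On day 1, Ifit1 (78.3 CPM), Rsad2 (28.6) and Usp18 (27.1) were lower still, and on day 7 they stood at 198, 95.5 and 50.7, so sham had the highest level of the 4 libraries. Isg15 UMIs were in 83.2% of sham and 52.2% of day 3 endothelial cells, and in 72.1% and 32.9% at equal depth. Outside the list, endothelial Ifitm1 (22.7 to 875 CPM), Ifitm2 (509 to 1430) and Gbp4 (135 to 387) rose, whereas Ifit3b (304 to 66.2) and Ifi27l2a (380 to 134) fell. The same list had a median of -0.75 over 5 tested genes in mural cells, where Isg15 fell from 251 to 69.6 CPM. In microglia it was -0.76 over 11, where 4 genes fell, Ifit3, Rtp4 and Xaf1 among them (3 of 9 at 50 CPM or more in both). In astrocyte-gated cells it was -1.12 over 10 with 7 fallen (3 of the 6 at 50 CPM or more in both libraries), but 0.06 over 6 in the narrower gate with 1 risen and 1 fallen. Only 2 members were tested in oligodendrocytes.

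The upstream sequences of 3 of these genes and of B2m are shown because they carry the letters GAAANNGAAA on either strand (capitals), which the interferon-activated factors are known to bind. Each is the 250 bases before the RefSeq start on the gene's strand in GRCm38.p6, namely chr4:156200819-156201068 (minus) for Isg15, chr19:34640639-34640888 (plus) for Ifit1, chr19:34583279-34583528 (plus) for Ifit3 and chr2:122147437-122147686 (plus) for B2m.
Isg15: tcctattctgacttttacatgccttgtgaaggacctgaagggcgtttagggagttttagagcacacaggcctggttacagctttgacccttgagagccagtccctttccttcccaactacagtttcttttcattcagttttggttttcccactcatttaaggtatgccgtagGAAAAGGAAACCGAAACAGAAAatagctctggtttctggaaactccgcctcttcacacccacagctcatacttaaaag
Ifit1: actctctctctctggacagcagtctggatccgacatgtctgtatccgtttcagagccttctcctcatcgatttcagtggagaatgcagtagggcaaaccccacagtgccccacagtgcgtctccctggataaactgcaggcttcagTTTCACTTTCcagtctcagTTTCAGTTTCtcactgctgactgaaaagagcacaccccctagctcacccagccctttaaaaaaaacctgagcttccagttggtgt
Ifit3: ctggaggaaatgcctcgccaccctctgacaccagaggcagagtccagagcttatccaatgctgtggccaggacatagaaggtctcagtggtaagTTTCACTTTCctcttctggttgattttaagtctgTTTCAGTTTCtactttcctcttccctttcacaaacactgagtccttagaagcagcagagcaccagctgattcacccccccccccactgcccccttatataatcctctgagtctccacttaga
B2m: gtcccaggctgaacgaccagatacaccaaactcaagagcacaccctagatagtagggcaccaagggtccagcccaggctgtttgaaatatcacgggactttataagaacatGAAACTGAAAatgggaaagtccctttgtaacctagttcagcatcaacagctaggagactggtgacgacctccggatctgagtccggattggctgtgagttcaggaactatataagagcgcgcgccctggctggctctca
Isg15 held 3 overlapping matches, Ifit1 and Ifit3 held 2 each and B2m held 1. The letters were in 7 of 12 interferon list genes with a window and in 2 of 10 MHC class I genes (B2m and H2-T23). They were in 3.99% of all 27025 genes and in 3.44% of all 32851 windows of 300 bases.

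Barrier genes of the endothelium stayed within 2-fold. All 12 barrier transporters were tested, 0 rose and 0 fell, and their median was -0.10. Mfsd2a, the lipid transporter that restrains transcytosis, stood at 483 and 290 CPM (ratio 0.602, 0.584 to 0.619), the anion transporter Slco1a4 at 1753 and 2084, and the efflux pump Abcg2 at 840 and 778. Among the genes that fell was Hmcn1, a matrix protein gene (279 to 84.9 CPM). Of the 499 genes tested in endothelial cells alone, 23 rose and 12 fell, against 70 (2.02%) and 36 (1.04%) of all 3459 tested there.

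In mural cells, Spp1, which codes for the secreted phosphoprotein osteopontin, had the largest ratio of the 24 genes past 2-fold. It went from 16.5 to 436 CPM (26.5-fold, 21.9 to 32.3), with UMIs in 1.98% of sham and 7.37% of day 3 cells, and in 0.824% and 5.48% at equal depth. The antioxidant gene Sod3 rose from 140 to 353 CPM, the matrix gene Thbs1 from 48.5 to 117, the small calcium-binding protein gene S100a6 from 141 to 347 and the amino acid transporter gene Slc6a20a from 110 to 250. Fibronectin (Fn1) rose from 25.2 to 75.9 CPM in the whole class but had a log2 ratio of -0.29 in the pericyte-marked cells alone, and that of Slc6a20a was -0.20 when cells over 5% mitochondrial UMIs were left out. Spp1, Thbs1 and Fn1 were under 50 CPM in sham mural cells and passed the minimum only through day 3. Of the extracellular matrix list, 2 of 11 tested genes rose (Fn1 and Spp1), but 0 of the 8 at 50 CPM or more in both libraries. All 10 smooth muscle contractile genes were tested, with 0 risen, 0 fallen and a median of 0.00. Among 342 genes tested in mural cells alone, 6 rose and 0 fell, against 19 (0.611%) and 5 (0.161%) of all 3108 tested there. With only pericyte-marked cells, 60 genes passed 2-fold in place of 24. With a limit of 5% mitochondrial UMIs, which left 372 sham and 1120 day 3 cells, 87 passed, and 11 of the 24 were among them.

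In oligodendrocytes 9 genes rose, and 3 of them were at 50 CPM or more in both libraries. Besides Hspa1a and Hspa1b they included genes of complement, protease inhibition and antigen presentation. C4b, complement component 4 (chr17:34728380-34743882), went from 6.18 to 157 CPM (25.5-fold, 20.5 to 32.1), and Serpina3n, a serine protease inhibitor (chr12:104406729-104414329), from 2.06 to 114 (55.4-fold, 38.3 to 83.2). Both were higher on day 1, at 287 and 442 CPM, and lower on day 7, at 86.3 and 25.6. Serpina3n also rose in astrocyte-gated cells (13.7 to 343 CPM), and had 0 UMIs in microglia of both libraries. It was too low to be tested in endothelial cells, with 0.254 CPM in sham and 36.2 on day 3 (UMIs in 0.0898% and 4.44% of cells), and in mural cells, with 0 and 7.56 CPM. C4b UMIs were in 4.38% of sham and 31.5% of day 3 oligodendrocytes and Serpina3n UMIs in 1.94% and 14.9%. At equal depth the shares were 0.582% and 12.2% for C4b and 0.218% and 5.50% for Serpina3n.

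H2-D1 and B2m, the heavy chain and the light chain of MHC class I that present peptides to T cells, were the 2 oligodendrocyte genes of the strict 1-class count. Both were under 50 CPM in sham oligodendrocytes and passed the minimum there only through day 3. H2-D1 (chr17:35262730-35267499) went from 45.4 to 328 CPM in oligodendrocytes (7.21-fold, 6.60 to 7.88), whereas it stood at 2684 and 2771 in endothelial cells, 268 and 283 in mural cells, 1517 and 2100 in microglia and 236 and 244 in astrocyte-gated cells. B2m (chr2:122147686-122153083, antisense to Patl2) went from 26.7 to 82.2 CPM (3.08-fold, 2.70 to 3.51), and its log2 ratio in the other classes was between 0.24 and 0.45. Their level on day 3 was still below that of microglia and endothelium. In the narrower astrocyte gate H2-D1 went from 37.8 to 158 CPM (interval of the ratio 1.98 to 10.2) and B2m from 70.8 to 144, so neither was counted for oligodendrocytes only under that gate. Neither was counted with the stricter gate, with 5% mitochondrial UMIs, with a minimum of 200 CPM or when genes under 1 in 10 of the level of the highest class were dropped as possible free RNA. H2-D1 belongs to a family of closely alike genes between which reads may be split. H2-D1 UMIs were in 27.0% of sham and 46.8% of day 3 oligodendrocytes, and in 4.58% and 16.6% at equal depth, while the 12 microglial markers summed to 27.6 and 66.4 CPM and the 8 endothelial markers to 124 and 156 CPM in the same cells.

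Myelin genes held their levels. All 11 were tested in oligodendrocytes, with 0 risen, 0 fallen and a median of -0.04. Mbp, which codes for myelin basic protein, stood at 4713 and 4573 CPM and Mal at 11500.1 and 9087. Klk6, a serine protease of oligodendrocytes, stood at 157 and 314 CPM, a ratio of 1.999 (1.88 to 2.12) just under the line on the log2(CPM + 10) scale, and at 501 on day 1. Of 414 genes tested in oligodendrocytes alone, 0 rose and 0 fell, against 9 (0.305%) and 4 (0.135%) of all 2954 tested there.

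**Figure D3:**
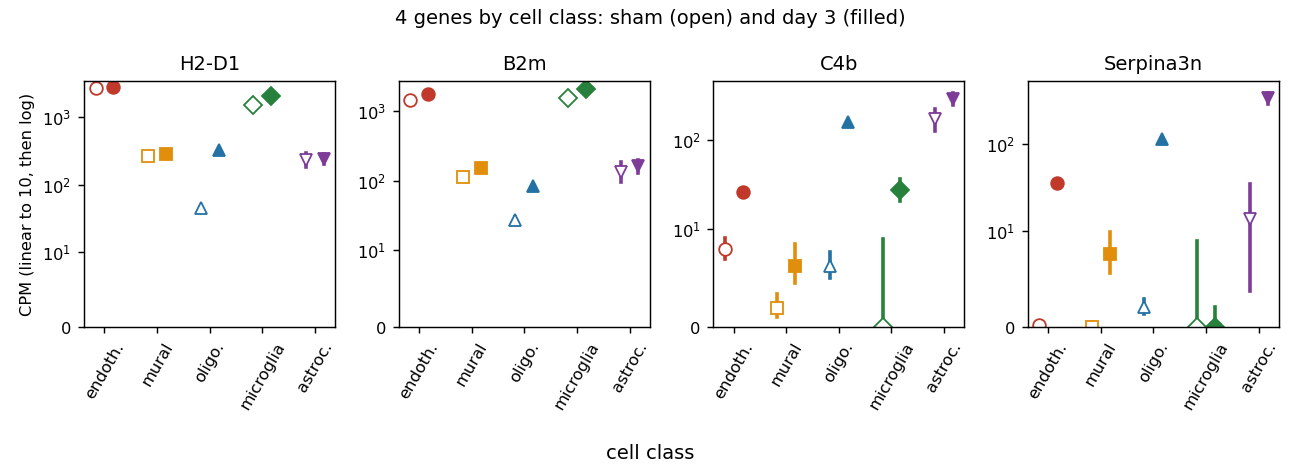
Level (y axis, CPM, linear up to 10 and logarithmic above) of H2-D1, B2m, C4b and Serpina3n in the 5 classes in sham (open) and on day 3 (filled), with exact 95% Poisson intervals. H2-D1 and B2m separate in oligodendrocytes and lie close together in the other whole classes, and Serpina3n separates in oligodendrocytes, astrocyte-gated cells and, at a lower level, endothelial cells.

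Microglia held 27 of the 36 genes of the strict upward count, of which 2 were kept with cells thinned to 1000 UMIs, 5 with cells of up to 3000 genes, 6 with the mean of cells, 11 with 5% mitochondrial UMIs and 16 with the narrower astrocyte gate. On the log2 scale, Spp1 (6.07) and Apoe (4.65) of the injury-associated list had the largest ratios, followed by Ube2c (4.07) and Birc5 (3.64). Spp1 had no UMI in 129 sham cells and 1153 UMIs in 394 day 3 cells (662 CPM). It was at least 73.8-fold higher by the lower limit of the ratio interval, and 90.9-fold against the floor of 3 counts in sham. Apoe, the lipid carrier apolipoprotein E, went from 575 to 14636 CPM (25.4-fold, 22.4 to 29.0). Cst7, a cathepsin inhibitor, went from 2 UMIs (4.85 CPM) to 154 CPM, a ratio of 31.8 (8.72 to 264), lipoprotein lipase (Lpl) from 7.28 to 142 CPM and galectin 3 (Lgals3) from 2.43 to 118. Of the 12 genes in this list, 10 were tested and 10 rose. As 6 of the 10 passed the minimum only through day 3, the 4 at 50 CPM or more in both libraries are named apart, and Apoe, Cd63, Ctsb and Ctsd rose. Their median log2 ratio was 2.11, against 3.00 over the 10. Apoe UMIs were in 47.3% of sham and 80.2% of day 3 microglia and Spp1 UMIs in 0% and 14.5%. Over the 94 and 279 cells with at least 1000 UMIs, thinned to that depth, the shares were 24.5% and 67.0% for Apoe and 0% (up to 3.85%) and 11.5% for Spp1. Apoe UMIs are also common in other classes, at equal depth in 15.8% and 19.9% of mural cells, 60.2% and 58.5% of endothelial cells and 65.3% and 79.4% of oligodendrocytes, and the part of free RNA in the microglial shares was not tested.

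Some genes of lysosomal digestion rose with them. All 14 lysosome genes were tested, 6 rose and 0 fell, with a median of 0.87 against -0.01 for all genes tested in microglia. The protease genes Ctsd (3575 to 16528 CPM, overlapping Gm49369) and Ctsb (1192 to 4817) and the membrane protein gene Cd63 (311 to 1264) rose at ratios of 4.62, 4.04 and 4.07. In the other classes the same list had medians of 0.15 to 0.42 with no member past 2-fold.

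Some genes of energy metabolism and of division also rose in microglia, where 126 of 2692 tested genes rose (4.68%). Of 13 tested genes of glycolysis and hypoxia, 8 rose and 0 fell at a median of 1.15, whereas the list had 0 past 2-fold in the other 4 classes at medians of 0.11 to 0.56. Of the 12 at 50 CPM or more in both libraries in microglia, 7 rose and 0 fell at a median of 1.14. Gapdh stood there at 548 and 1780 CPM and lactate dehydrogenase A (Ldha) at 146 and 375. Of 69 tested nuclear genes of oxidative phosphorylation, 10 rose (median 0.61), and of 81 ribosomal protein genes, 9 rose (median 0.57). Among these genes Uqcr10, a subunit of respiratory complex III, went from 97.1 to 261 CPM. Ube2c and Birc5, which act in mitosis, had 0 UMIs in sham and 275 and 200 on day 3 (158 and 115 CPM), and both stood at under 5 CPM on day 7. On day 3 they were at least 17.5-fold and 12.7-fold higher by the lower interval limits, and 21.7-fold and 15.8-fold against the floor of 3 counts in sham. H2afz, a histone variant, went from 218 to 820 CPM and Stmn1, which destabilises microtubules, from 87.4 to 466. Of the 14 genes of the proliferation list, 4 were tested and 3 rose (Birc5, H2afz and Stmn1), or 2 of the 3 at 50 CPM or more in both libraries, and Hmgb2 had a log2 ratio of 0.21. Anxa5 (36.4 to 143 CPM), H2afv (48.5 to 173 CPM), H2afz and Uqcr10 were among the 27 that rose in microglia only. Anxa5 and H2afv passed the minimum in microglia only through day 3.

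Some early response and inflammatory genes were lower in day 3 microglia. Of 16 tested immediate early genes, 5 fell and 0 rose (median -0.68), with Fos at 6623 and 3103 CPM and Junb at 6511 and 3039. Nfkbia, the feedback inhibitor of NF-kB, fell from 4164 to 1248 CPM and Mtdh from 660 to 266, and these were the 2 that fell in microglia only. Neither kept that status with pericyte-marked mural cells or with a minimum of 200 CPM. With each of 5% mitochondrial UMIs, the mean of cells, thinning and the free RNA limit, 1 of the 2 kept it. The interferon-induced chemokine Cxcl10 fell from 497 to 156 CPM, the adrenergic receptor gene Adrb1 from 119 to 28.7 and the phosphatase gene Dusp2 from 223 to 62.6. In contrast, the monocyte-attracting chemokines Ccl2 (357 to 816 CPM) and Ccl7 (41.3 to 115) rose, so that 2 of 11 tested cytokine genes rose and 1 fell, or 1 and 1 of the 10 at 50 CPM or more in both libraries, as Ccl7 was tested only through day 3. Immediate early genes are known to respond to enzymatic dissociation, whose part was not tested. Sham microglia held more oligodendrocyte RNA, with 175 and 69.5 CPM over the 8 oligodendrocyte markers, and Mbp (84.9 to 31.6 CPM) fell. Among 479 genes tested in microglia alone, 21 rose and 24 fell, against 126 (4.68%) and 89 (3.31%) of all 2692 tested there.

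**Figure D4:**
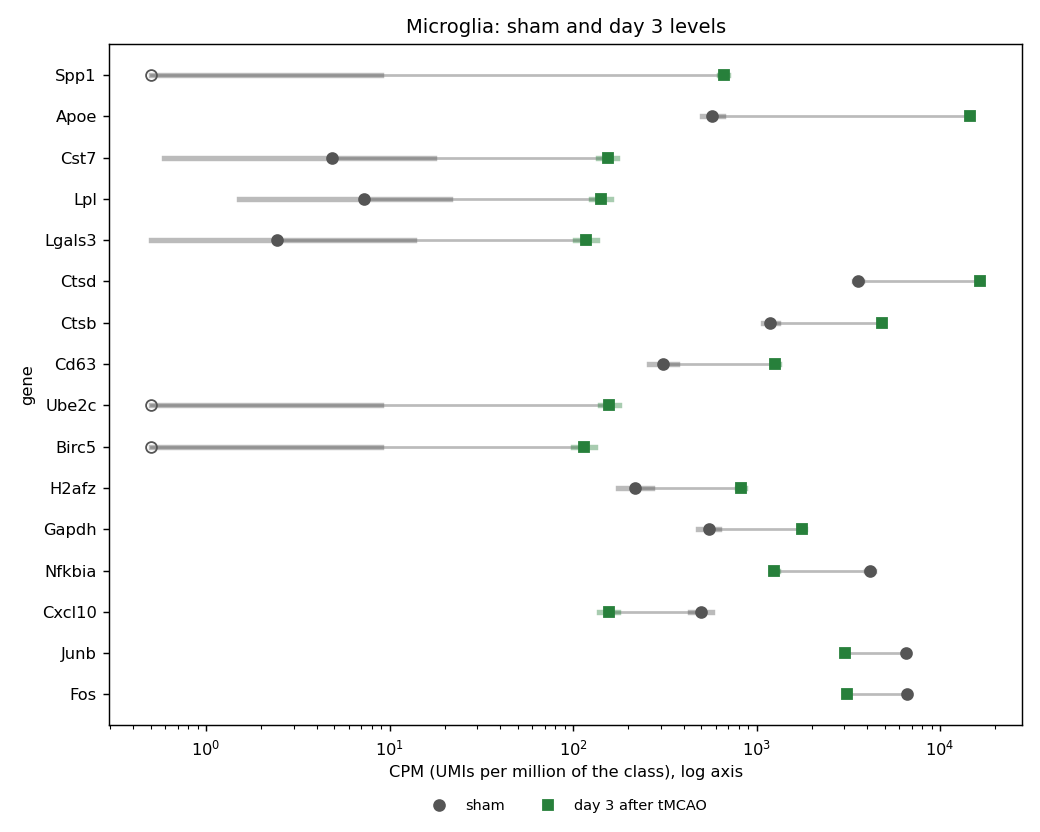
Level in microglia (x axis, CPM on a log scale) of named genes (y axis) in sham (circles) and on day 3 (squares), with exact 95% Poisson intervals as bars and open circles at the left edge for 0 UMIs. The intervals are wide for sham because its 129 cells gave 412061 UMIs, and those of Spp1, Apoe, Cst7, Lpl and Lgals3 do not overlap between the libraries.

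Astrocyte-gated cells showed reactive genes under both gates. Gfap, the intermediate filament that marks reactive astrocytes, went from 813 to 2225 CPM (2.74-fold, 2.38 to 3.16) in the whole class and from 1119 to 3294 in the narrower gate. Vimentin (Vim), its partner filament, went from 174 to 1622 CPM and, in the narrower gate, from 109 to 1815. Serpina3n went from 13.7 to 343 CPM (14.2 to 495 in the narrower gate) and S100a6 from 215 to 1444 (165 to 1841). Of the reactive list, 4 of 5 tested genes rose in the whole class and 4 of 4 in the narrower gate. Serpina3n passed the minimum only through day 3 under both gates, and 3 of the 4 members at 50 CPM or more in both libraries rose in the whole class. Homeostatic genes were mixed, with 2 risen and 1 fallen of 12 tested (3 and 1 in the narrower gate). Glul, the glutamine synthetase gene, went from 1360 to 2761 CPM (1562 to 3544), the metallothionein gene Mt3 from 3372 to 6983 (4493 to 10684) and the GABA transporter gene Slc6a11 fell from 1148 to 415 CPM (1539 to 659).

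Much of the rest depended on which cells were counted as astrocytes. Of 150 genes that rose in the whole class, 82 also rose in the narrower gate, and of 173 that fell, 100 also fell. Prss56 (3.42 to 178 CPM) and Crym (6.83 to 264) rose in the whole class, and in the narrower gate Crym went from 4.72 to 351 CPM but Prss56, with 1 UMI in each library, was too low to be tested. Among the 6 genes that rose in this class only, Phlda1 went from 13.7 to 122 CPM, Vapa from 133 to 316, Eif4a1 from 78.6 to 194 and the immediate early gene Ier2 from 75.2 to 196. Prss56, Crym and Phlda1 were under 50 CPM in sham and passed the minimum only through day 3. In the narrower gate Vapa went from 127 to 293 CPM and Eif4a1 from 66.1 to 170, whereas Phlda1 (1 and 9 UMIs) and Ier2 (4 and 6 UMIs, log2 ratio -0.08) were too low to be tested. Tnrc6a (266 to 84.3 CPM), the amino acid transporter gene Slc38a2 (1052 to 402) and Rrbp1 (406 to 158) were the 3 that fell in it only. In the narrower gate Tnrc6a went from 307 to 109 CPM and Rrbp1 from 439 to 161, and Slc38a2, with 9 and 8 UMIs, was too low to be tested. With the narrower gate, 2 of the 6 and 1 of the 3 kept that status, with 5% mitochondrial UMIs 1 and 0, and with cells thinned to 1000 UMIs 0 and 1. The mural markers summed to 471 CPM in sham and 1161 CPM on day 3 in these cells. Of 639 genes tested in this class alone, 33 rose and 62 fell, against 150 (4.19%) and 173 (4.84%) of all 3578 tested there. In the narrower gate 14 of the 33 also rose.

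Interferon-stimulated genes had medians of -0.96, -0.75, -0.76 and -1.12 in endothelial, mural, microglial and astrocyte-gated sums, the last at 0.06 in the narrower gate. The adhesion list could be assessed only in endothelial cells, the injury-associated list was at 3.00 in microglia (2.11 over the 4 members at 50 CPM or more in both libraries) and at 0.43 to 0.63 in the other classes, and immediate early genes were below 0 in every class except the astrocyte-gated one (0.72, and 0.48 over 4 in the narrower gate). Cytosolic ribosomal protein genes had 0 of 81, 81 and 79 past 2-fold in endothelial cells, mural cells and oligodendrocytes, at medians of 0.21, 0.02 and 0.06. Proteasome genes, at medians of -0.03 to 0.20, had 1 member past 2-fold, in astrocyte-gated cells.

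**Figure D5:**
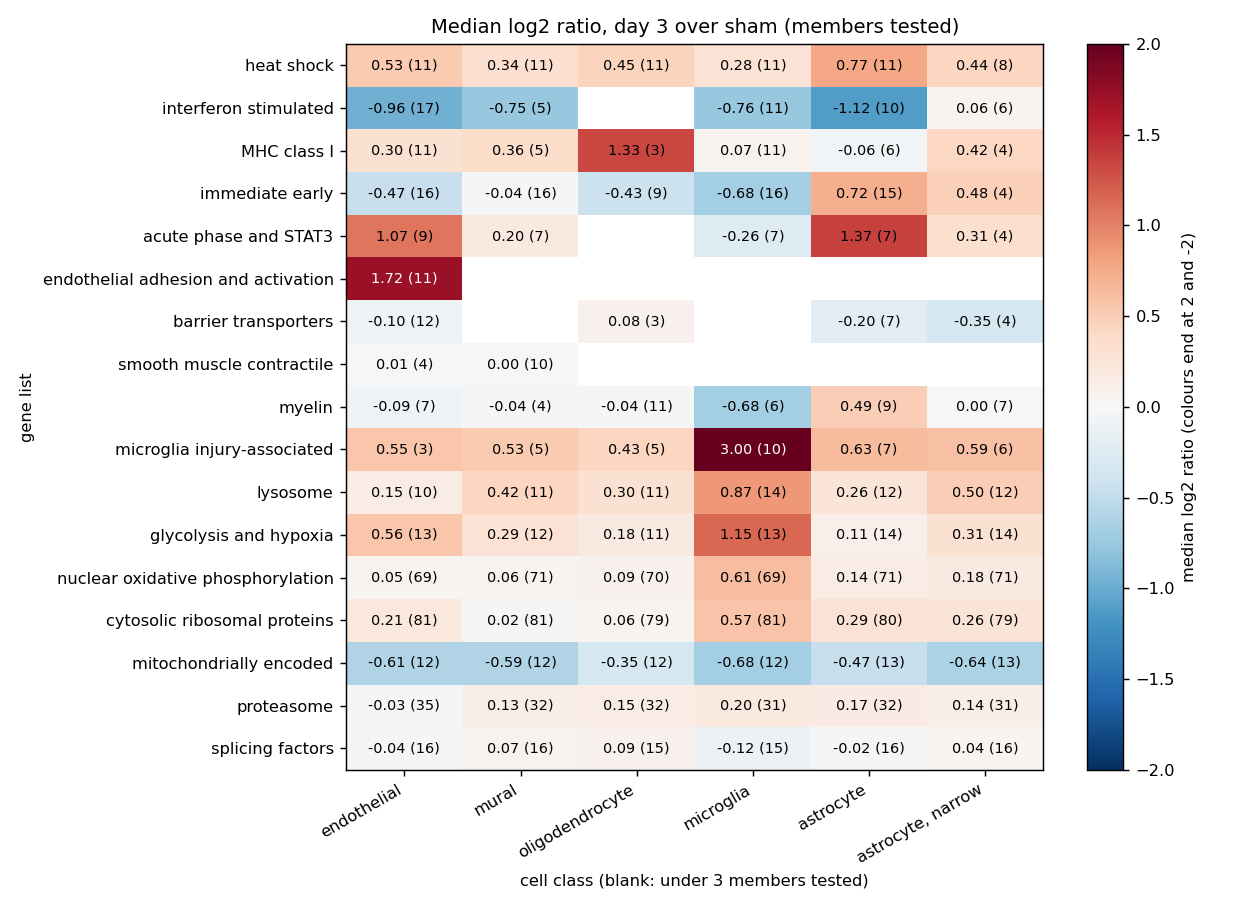
Median log2 ratio of day 3 over sham for 17 of the gene lists (rows, without the proliferation and astrocyte reactive lists among others) in the 5 classes and in the narrower astrocyte gate (columns), with the number of members tested in brackets and cells left blank under 3. Among the lists drawn, the darkest cells are the injury-associated list in microglia (3.00) and the adhesion list in endothelial cells (1.72), with 6 of 10 and 5 of 11 members tested only through day 3, and all 3 MHC class I genes in oligodendrocytes (1.33) were tested only through day 3.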

How the data were processed

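Single-cell libraries of sham mice and of mice 1, 3 and 7 days after tMCAO were analysed, 1 per group. The authors deposited raw UMI counts per gene and called cell, written by Cell Ranger 4.0.0 per the file headers; the methods name Cell Ranger 3.0.1, Seurat 4.1.2 and a human build, although all gene identifiers are mouse. Of 31053 identifiers, 31011 were found in GENCODE vM21 (GRCm38), which gave coordinates. The study limited cells to 3000 genes, which was tried as an alternative to the 6000 used here.

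A cell entered a class with at least 3 of its markers and a marker sum of at least 32 UMIs per 10000 (16 for the minor classes, 500 for erythrocytes). Cells with at least 2 border macrophage markers, or at least 2 monocyte markers, were barred from the microglial class. Cells of several classes were set aside. Counts were summed per class and library and scaled to CPM. Intervals are exact Poisson (levels), exact conditional (ratios) and Clopper-Pearson (shares). The 69392755 UMIs of the shallower library and the 129 sham microglia limit the precision, and UMIs correct for amplification only.

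The genes, lists and classes were chosen with earlier results of these data known. Genes are named by rule: the 12 upward and 8 downward genes tested in all 5 classes with the largest of their smallest changes, per class up to 4 1-class genes in each direction by gap to the nearest other class and 3 in each direction among genes tested there alone, and up to 4 members per list. Other list members that passed (such as Vcam1, Icam1, Isg15 and Irf7), the genes shown with sequences, the narrower astrocyte gate and the genes of opposite direction were chosen after their values were seen. Alternatives changed the added CPM, the minimum, the fold, cell limits, gates, doublets, scaling, thinning, free RNA and mural subset. Calls and intervals were tested on simulated data. Python 3.11.15, numpy 2.4.6, pandas 2.3.3, scipy 1.17.1, scanpy 1.11.5 (Scrublet) and matplotlib 3.10.9 were used. Promoter windows are RefSeq's. Some genes are counted but not reported here. The bulk and proteomic data of the study were not analysed here.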

Additional observations from a re-analysis of the deposited data

Results flagged for a closer look

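In 8 genes, chosen after their values were seen, the change passed 2-fold upward in 1 class and downward in another, with 1 library per group and the difference between classes not tested. Astrocyte-gated cells were on the upper side in 5. Glul, glutamine synthetase, had a log2 ratio of 1.02 in astrocyte-gated cells and -1.11 in microglia. Junb had 1.92 and -1.10 in the same 2 classes, and Socs3, a feedback inhibitor of cytokine signalling, 2.11 and -1.01. Ptn, a growth factor gene, had 1.91 in astrocyte-gated cells and -1.01 in endothelial cells, and Pmepa1 had 1.24 and -1.20 there.

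Stmn1 stood at 2.29 in microglia and -1.10 in endothelial cells, and Fxyd5 at 3.45 in microglia and -1.01 in astrocyte-gated cells. The hypoxia factor gene Hif1a stood at 1.30 in endothelial cells and -1.26 in astrocyte-gated cells. Under the narrower astrocyte gate, Glul, Ptn and Junb remained past 2-fold upward and Hif1a downward (-1.55), and Socs3 (0 UMIs in sham and 19 on day 3), Pmepa1 (6 and 4) and Fxyd5 (1 and 5) were too low to be tested.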

How the results depend on the processing

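Gm42418 fell in all 5 classes under every alternative run, and Lars2 under all but a minimum of 200 CPM, the mean of cells and thinning. Counts moved more, and the cause was not tested unless the setting itself sets the number of genes. With 1 CPM added, 3 genes rose in all classes and 42 passed in mural cells. With 50 CPM added, 67 passed in endothelial, 12 in mural, 105 in microglial and 122 in astrocyte-gated cells. With a minimum of 20 CPM, 11 fell in 1 class only, and 38, 373 and 668 passed in mural, microglial and astrocyte-gated cells. With a minimum of 200 CPM, 1 fell in all classes, 13 rose and 0 fell in 1 class only, and 47, 9, 5, 92 and 64 passed in endothelial, mural, oligodendrocyte, microglial and astrocyte-gated cells. At 1.5-fold, 6 rose and 6 fell in all classes, 75 rose and 18 fell in 1 only, and 373, 161, 78, 798 and 1029 passed by class. With cells of up to 3000 genes, 2 rose in all classes, 14 rose in 1 only, 124 passed in microglia, and the share ratios were 0.947 (endothelial), 1.13 (mural) and 0.858 (oligodendrocyte). With 5% mitochondrial UMIs, 87 passed in mural cells and these ratios were 0.930, 2.27 and 0.710. Genes that rose in 1 class only were 20 with the stricter gate, 22 with the narrower astrocyte gate, 16 with the mean of cells and 8 when thinned. With the mean of cells, 2 rose and 1 fell in all classes, and 641 passed in astrocyte-gated cells. When thinned, 1 fell in all classes, 3 fell in 1 only, and 41, 458 and 819 passed in mural, microglial and astrocyte-gated cells. A free RNA limit left 3 and pericyte-marked mural cells 2 that fell in 1 class only, and the latter gave 60 in mural cells.

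Of 2475 values of named genes under the alternatives, 2092 moved little, 373 moved and 10 reversed. The log2 ratio of Ier2 in astrocyte-gated cells was -0.017 with up to 3000 genes, -0.039 when thinned and -0.083 with the narrower gate. Slc6a20a in mural cells was at -0.20 with 5% mitochondrial UMIs and Fn1 at -0.29 in pericyte-marked cells. With the narrower astrocyte gate, Apod was at -1.53 (4 and 0 UMIs), Fxyd5 at 0.73 (1 and 5), Htra3 at 0.66 (0 and 2), Pmepa1 at -0.83 (6 and 4) and Prss56 at -0.19 (1 and 1), all too low there to be tested. Depth limits microglia and astrocyte-gated cells most. No paired analysis was possible because each group holds 1 library.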

Other observations

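The list named actin and tubulin also holds S100 genes and vimentin. Of its members, S100a6 rose in 3 classes, from 36.0 to 97.1 CPM in endothelial cells, 141 to 347 in mural cells and 215 to 1444 in astrocyte-gated cells (165 to 1841 in the narrower gate). In microglia it had 0 UMIs in sham and stood at 19.5 CPM on day 3, too low to be tested. Its relative S100a11 rose in endothelial cells (248 to 539 CPM) and astrocyte-gated cells (71.7 to 170 CPM), with 1 and 22 UMIs in the narrower gate, too low to be tested. Of 16 tested members of this list in microglia, 4 rose (Tuba1b, Tuba1c, Tubb5 and Vim) and 1 fell, where 4.68% and 3.31% of all tested genes did. Of the 15 at 50 CPM or more in both libraries, 3 rose and 1 fell. The tubulin genes moved apart there, with Tuba1b at 233 and 478 CPM and Tubb5 at 269 and 597, both risen, whereas Tuba1a fell from 541 to 200 CPM.

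Some genes of the acute phase rose in endothelial and astrocyte-gated cells. Cebpd and Cebpb rose in both whole classes, but Cebpb passed the minimum in astrocyte-gated cells only through day 3 (34.2 to 104 CPM). Of 9 tested genes of the acute phase and STAT3 list, 5 rose in endothelial cells (Lcn2, Osmr, Cebpd, Cebpb and Lrg1), with the transcription factor gene Cebpd at 159 and 466 CPM, and 4 of the 7 at 50 CPM or more in both libraries, as Lrg1 was tested only through day 3. Of 7 tested in astrocyte-gated cells, 4 rose (Socs3, Cebpd, Cebpb and Serpina3n), but 3 of these passed the minimum only through day 3. Of the 4 members at 50 CPM or more in both libraries 1 rose, with a median log2 ratio of -0.41, and in the narrower gate 2 of 4 rose (Cebpd and Serpina3n), with Socs3 too low to be tested. Of 7 in microglia 0 rose and 1 fell (Socs3, 1471 to 723 CPM). Among antioxidant genes Prdx1, a peroxiredoxin, rose in microglia (211 to 458 CPM) and astrocyte-gated cells (605 to 1380), but missed the line in the narrower astrocyte gate (585 to 1151 CPM, log2 ratio 0.96), and had log2 ratios of 0.28 to 0.45 in the other classes.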
